A study of Mus musculus with 46 samples.

Results

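Pttg1, Cyfip2, Il15, Rpgrip1 and Stk25 are 5 genes whose RNA signal was lower in hearts of MRL/MpJ (MRL) mice than in hearts of C57BL/6J (C57) mice. They were chosen from earlier results on these same arrays because of that strain difference, so the difference itself is described here and not tested. Of the 12393 genes that have a probe set annotated to 1 symbol, these 5 have 10 probe sets, out of 22690 on the Affymetrix MOE430A array. The mice were males of 15 to 20 weeks. MRL hearts and C57 hearts were taken on day 0 from unoperated animals, and on day 1 or day 5 after the left coronary artery was tied off, which kills the heart muscle it feeds. Each left ventricle was divided with a biopsy punch into an infarct region, which after surgery includes the border of the infarct, and a noninfarct region, the rest of the ventricle. At day 0 the infarct region is the matching anterior-apical part of a healthy ventricle. Each of the 12 groups has 4 arrays, except the C57 day 0 groups with 3, which makes 46 arrays. The labels call the arrays biological replicates, and nothing in them ties an infarct array to the noninfarct array of its heart.

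The members have unrelated textbook roles. Pttg1 encodes securin, which holds separase inactive until sister chromatids part in mitosis. Cyfip2 is a subunit of the WAVE regulatory complex, through which the small GTPase Rac drives branched actin. Il15 is a cytokine that is presented on its receptor alpha chain and keeps natural killer cells and memory T cells alive. Rpgrip1 anchors the protein RPGR in the connecting cilium of photoreceptors, and Stk25 is a kinase of the germinal centre kinase family that associates with the STRIPAK phosphatase complex. MRL mice are known for closing ear punch wounds without a scar. Levels are given as log2 of the deposited intensity, and each value belongs to 1 probe set, so the height of one probe set says nothing about another.

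The promoters of Pttg1, Cyfip2 and Rpgrip1 are shown because these levels changed after infarction in C57 hearts, Pttg1 and Cyfip2 downward and Rpgrip1 upward, though Cyfip2 and Rpgrip1 passed the test only without 2 libraries described below. Of the 5 members, 4 have an entry in the RefSeq promoter table (build GRCm38.p6, 250 bases before to 50 after the gene's start), and Il15 has none. Capitals mark matches on either strand to the CCAAT box (CCAAT), to the element TTTGAA of many cell cycle genes, to the GC box (GGGCGG) and to the TATA box (TATAAA). Pttg1 lies on the minus strand at chr11:43425932-43426231, Cyfip2 on the minus strand at chr11:46312309-46312608 and Rpgrip1 on the plus strand at chr14:52110653-52110952.
Pttg1: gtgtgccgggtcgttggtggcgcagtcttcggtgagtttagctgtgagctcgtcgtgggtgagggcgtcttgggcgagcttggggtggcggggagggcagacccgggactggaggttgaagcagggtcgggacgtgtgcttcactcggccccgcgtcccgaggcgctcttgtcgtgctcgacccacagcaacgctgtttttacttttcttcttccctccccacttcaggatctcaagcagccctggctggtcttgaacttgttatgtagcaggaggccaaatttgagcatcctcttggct
Cyfip2: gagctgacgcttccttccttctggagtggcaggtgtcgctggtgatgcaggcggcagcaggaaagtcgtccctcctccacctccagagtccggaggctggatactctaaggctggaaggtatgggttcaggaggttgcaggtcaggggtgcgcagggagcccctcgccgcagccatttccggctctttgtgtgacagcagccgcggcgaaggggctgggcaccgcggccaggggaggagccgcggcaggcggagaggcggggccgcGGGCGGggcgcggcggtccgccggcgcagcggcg
Rpgrip1: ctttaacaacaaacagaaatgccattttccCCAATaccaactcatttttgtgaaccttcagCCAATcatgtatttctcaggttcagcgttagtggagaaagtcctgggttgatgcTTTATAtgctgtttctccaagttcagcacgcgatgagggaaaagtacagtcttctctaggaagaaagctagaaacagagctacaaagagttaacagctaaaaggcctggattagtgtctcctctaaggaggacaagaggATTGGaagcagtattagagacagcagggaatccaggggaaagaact
The Pttg1 window holds none of the 4 motifs, and the Cyfip2 window holds 1 GGGCGG. Rpgrip1 has 3 matches to CCAAT and 1 to TATAAA, and no match in the printed windows overlaps another. CCAAT is held by 37.4% of all 32851 promoters listed. The share is 17.9% for the cell cycle element, 35.7% for the GC box and 13.6% for the TATA box. A match describes letters in the window and is not evidence of a bound site.

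Both strains expressed heart muscle genes at every time: the mean log2 level of 9 cardiomyocyte genes was between 12.06 and 14.07 in all arrays. Array medians lay between 4.22 and 4.48, and a probe set was tested if at least 3 arrays of a fit had it above their own median. A call means an adjusted p under 0.05 in limma (Benjamini-Hochberg over all tested probe sets), and every p below is of that kind. A bulk array cannot tell fewer cells of a type from less RNA per cell. A lower signal and a base difference between the strains under a probe cannot be told apart here either, because probe sequences were not used.

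2 libraries went against their labels, and day 5 results are given with and without them. Over 40 other probe sets that differed between the strains at days 0 and 1 in both regions, each array was placed on a scale where 0 is the C57 mean and 1 is the MRL mean. The library labelled MRL day 5 infarct replicate 3 stood at -0.0548, while the 7 other MRL day 5 arrays stood between 0.58 and 0.967. The library labelled C57 day 5 noninfarct replicate 3 stood at 0.593, while the 7 other C57 day 5 arrays stood between -0.303 and 0.00789. Each of them was thus on the other strain's side. The region markers differed too: cardiomyocyte genes were at 13.86 in the library labelled MRL day 5 infarct replicate 3, against 12.06 to 12.68 in the rest of its group, and at 12.72 in the library labelled C57 day 5 noninfarct replicate 3, against 13.65 to 13.96 in the rest of its group. The mean over monocyte and macrophage genes was 7.37 in the first and 9.50 in the second. Whether the labels of these 2 libraries were exchanged was not tested. A further array, C57 day 5 infarct replicate 1, kept a cardiomyocyte level of 13.70, against 12.47 to 12.82 in the other 3 arrays of its group.

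**Figure D1:**
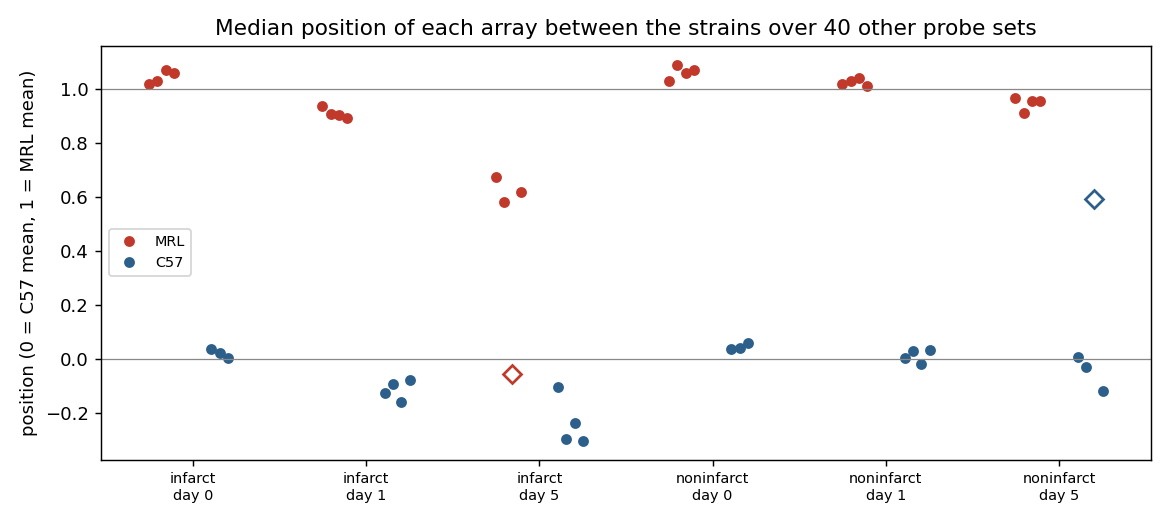
Each point is 1 array, placed by its median position between the C57 mean (0) and the MRL mean (1) over 40 strain-dependent probe sets that are not members. Open diamonds are the library labelled MRL day 5 infarct replicate 3 at -0.0548 and the library labelled C57 day 5 noninfarct replicate 3 at 0.593, each on the side of the other strain.

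Before surgery every member was far lower in MRL hearts, in both regions. Of the 10 member probe sets, 6 passed the filter on low values, and at day 0 all 6 were lower in every MRL array than in every C57 array, as were 5.64% of all tested probe sets in infarct and 7.22% in noninfarct tissue. Over 3 days and 2 regions the groups stood apart with MRL lower in 28 of 36 comparisons of these 6 probe sets, and in 35 of 36 without the 2 libraries. The same pattern held for 3.84% of all probe set comparisons, a figure from which nothing is read here, since the members were chosen for it.

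Stk25 gave the plainest picture. In the infarct region at day 0 its signal (1416770_at) was 2.60, 3.17, 2.65 and 2.56 in MRL hearts, against 5.90, 5.79 and 5.83 in C57 hearts. At day 5 it was 2.50, 2.55, 5.81 and 2.48 in libraries labelled MRL, against 5.60, 6.46, 6.13 and 6.09 in C57 hearts. Apart from the library labelled MRL day 5 infarct replicate 3, no MRL array of infarct tissue reached the lowest C57 array of its day. In the noninfarct region at day 5 the values were 2.50, 2.47, 2.67 and 2.63 in MRL hearts, against 6.12, 6.03, 2.67 and 5.88 in libraries labelled C57. There too a single library, C57 replicate 3 by its label, stood with the other strain.

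The Stk25 gap, MRL minus C57, was -3.09 ± 0.54 (SE) at day 0 in infarct tissue and -3.38 ± 0.50 in noninfarct tissue. At day 5 with all arrays it was -2.73 ± 0.50 in infarct and -2.61 ± 0.47 in noninfarct tissue. Without the 2 libraries the day 5 gap was -3.56 ± 0.25 in infarct and -3.44 ± 0.13 in noninfarct tissue. Only without them was it about as wide as that of day 0. None of the 8 changes of Stk25 after infarction was called by limma, with or without the 2 libraries, and 0 of the 8 had an unadjusted p under 0.05 in either fit. Of these tests 4 are within MRL, at background, where a fall could not be seen, and only the 4 in C57 bear on its level there. In C57 infarct tissue the change was -0.24 ± 0.54 at day 1 and 0.23 ± 0.54 at day 5. No MRL array other than the library labelled day 5 infarct replicate 3 lay above its array's median for Stk25, so the MRL level is only a bound and the size of the gap is not exact. With 32 added to every intensity the day 0 gap was -1.20 in infarct and -1.33 in noninfarct tissue.

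Rpgrip1 stood lower in MRL hearts at every time, and after infarction the C57 levels in the infarct region were mostly above those of day 0. Its tested probe set (1421144_at) was at 2.98, 3.01, 3.01 and 3.19 in MRL infarct tissue at day 0, against 5.91, 6.44 and 7.17 in C57. At day 1 it was 3.00, 3.10, 3.11 and 3.33 in MRL, against 7.69, 7.29, 8.46 and 8.24 in C57. At day 5 it was 3.01, 2.95, 7.36 and 2.88 in libraries labelled MRL, against 7.03, 8.24, 8.34 and 8.18 in C57. All 4 C57 arrays of day 1 were above all 3 of day 0, and the one C57 array of day 5 within the day 0 range was replicate 1, the one with a high cardiomyocyte level. The C57 change from day 0 was 1.41 ± 0.71 at day 1 (adjusted p = 0.19) and 1.44 ± 0.71 at day 5 (adjusted p = 0.11). Without the 2 libraries, neither of which is in these groups, the estimates were the same and the spread was smaller: adjusted p = 0.0032 at day 1 and 0.00079 at day 5. The Rpgrip1 rise in C57 is therefore called only when those libraries leave the fit.

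The Rpgrip1 gap in the infarct region was -3.46 ± 0.71 at day 0 and -4.78 ± 0.66 at day 1. At day 5 it was -3.89 ± 0.66 with all arrays and -5.00 ± 0.31 without the 2 libraries. In the noninfarct region it was -4.23 ± 0.63 at day 0 and -4.42 ± 0.59 at day 1. There the day 5 gap was -3.33 ± 0.59 with all arrays and -4.39 ± 0.13 without the 2 libraries. The test of strain by infarction, which asks whether the gap differs from its day 0 size, did not call Rpgrip1: at day 5 in the infarct region the difference of changes was -0.43 ± 0.97, and -1.53 ± 0.44 without the 2 libraries (adjusted p = 0.20). Outside the library labelled day 5 infarct replicate 3, no MRL array was above its array median for Rpgrip1, and the day 0 gap in the infarct region was -1.63 with 32 added.

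The measured Il15 gap closed in the infarct region as the C57 signal fell towards background. The MRL signal was at background from day 0, so a fall there, or a gap left below background, could not be seen. In MRL infarct tissue its signal (1418219_at) was 3.71, 3.88, 4.05 and 3.44 at day 0, 3.39, 3.60, 3.50 and 3.72 at day 1, and 3.52, 3.59, 6.38 and 4.05 at day 5, where 6.38 belongs to the library that stood with C57. In C57 infarct tissue it was 6.97, 7.48 and 8.22 at day 0, 5.13, 5.18, 4.10 and 4.66 at day 1, and 5.24, 3.62, 3.74 and 4.29 at day 5. By day 5 the C57 values reached into the MRL range, while at day 0 the strains were far apart. Il15 fell in C57 infarct tissue by 2.79 ± 0.51 at day 1 (6.92-fold, adjusted p = 0.00092) and by 3.34 ± 0.51 at day 5 (adjusted p = 5.7e-05). Only 1 of the 4 C57 arrays of day 5 and 3 of the 4 of day 1 had Il15 above their array median, so the lower end of both falls lies near background and the falls may be larger than measured.

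In the C57 noninfarct region Il15 was at 6.92, 7.42 and 7.25 at day 0, 6.97, 6.22, 7.34 and 5.87 at day 1, and 6.92, 6.20, 3.60 and 5.61 at day 5 in libraries by their labels. The noninfarct levels were closer to day 0 than those of the infarct region. The day 5 fall there, -1.62 ± 0.48 (adjusted p = 0.023), was -0.96 ± 0.30 without the 2 libraries, with an adjusted p of 0.050 that no longer passed. The day 5 call also ended without C57 day 0 noninfarct replicate 2 or without replicate 3. Between regions of C57 hearts, Il15 at day 1 was lower in infarct than in noninfarct tissue by -1.83 ± 0.47 (adjusted p = 0.016), and by -2.02 ± 0.32 at day 5 without the 2 libraries (adjusted p = 2.4e-05), against -1.36 ± 0.47 with them (adjusted p = 0.062).

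In numbers, the Il15 gap in the infarct region was -3.79 ± 0.51 at day 0, -1.22 ± 0.48 at day 1 and 0.16 ± 0.48 at day 5, or -0.50 ± 0.34 at day 5 without the 2 libraries, where the groups overlapped. In the noninfarct region it was -3.39 ± 0.48, -2.94 ± 0.44 and -2.15 ± 0.44, the last -2.81 ± 0.28 without them. Strain by infarction at day 5 in the infarct region was 3.95 ± 0.70 (adjusted p = 0.012), or 3.28 ± 0.48 (adjusted p = 0.00093) without the 2 libraries. It lost its call without C57 day 0 infarct replicate 3 (adjusted p = 0.069). In MRL hearts no array except the library labelled day 5 infarct replicate 3 had Il15 above its array median, so a fall in MRL could not have been measured. The members were chosen for their gaps, day 0 included, so this test is not independent of the choice.

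By its stronger probe set (1438390_s_at), the Pttg1 gap narrowed from both sides. The other sets, given below, did not all show this. The stronger set was at 7.77, 7.85, 7.82 and 7.49 in MRL infarct tissue at day 0, 7.36, 6.94, 6.64 and 7.00 at day 1, and 8.78, 9.60, 10.88 and 9.11 at day 5 in libraries labelled MRL. In C57 infarct tissue it was 11.96, 11.58 and 11.96 at day 0, 11.42, 11.20, 10.34 and 10.48 at day 1, and 11.42, 10.30, 10.25 and 9.98 at day 5. The MRL arrays of day 5 were all above those of day 0, and the C57 arrays of day 5 all below those of day 0. In MRL hearts Pttg1 rose at day 5 by 1.86 ± 0.36 (3.63-fold, adjusted p = 0.00039), or 1.43 ± 0.31 without the 2 libraries (adjusted p = 0.00053). In C57 hearts it fell by 1.34 ± 0.39 (2.54-fold, adjusted p = 0.0095).

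The gap of this probe set in the infarct region was -4.10 ± 0.39 at day 0, -3.87 ± 0.36 at day 1 and -0.90 ± 0.36 at day 5, or -1.33 ± 0.31 without the 2 libraries. The groups then stood apart again, MRL lower. Strain by infarction at day 5 was 3.20 ± 0.53 (adjusted p = 0.0096), and 2.78 ± 0.43 (adjusted p = 0.0018) without the 2 libraries. Leaving out each of the 15 arrays compared in turn kept this call, with values between 2.78 and 3.51. At day 1 the same test gave 0.23 ± 0.53, far from a call.

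In the noninfarct region the same probe set changed in the same directions. Its values in MRL were 7.24, 7.38, 7.58 and 7.37 at day 0, against 11.98, 11.92 and 11.61 in C57, and at day 5 they were 8.37, 8.55, 8.20 and 8.33, against 11.69, 11.00, 8.93 and 10.64 in libraries labelled C57. MRL day 5 arrays all stood above MRL day 0 arrays. The change was 0.97 ± 0.35 in MRL (adjusted p = 0.047) and -1.27 ± 0.37 in C57 (adjusted p = 0.023). The MRL call ended when any of 8 arrays was left out (adjusted p up to 0.12), and was much firmer without the 2 libraries (adjusted p = 0.00048), whereas the C57 fall was then -0.73 ± 0.21 (adjusted p = 0.035). The noninfarct gap was -4.44 ± 0.37 at day 0 and -2.75 ± 0.20 at day 5 without the 2 libraries, and -2.20 ± 0.35 with them. Strain by infarction there was 1.69 ± 0.28 (adjusted p = 0.011) without the 2 libraries and was not called with them.

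The other probe sets of Pttg1 did not all show the same changes. The suffix s_at marks a set whose probes may match several transcripts or genes, and a_at one for alternative transcripts of 1 gene. The a_at set (1424105_a_at) had nearly the same day 0 gap, -4.21 ± 0.56 in the infarct region, with 6.26, 6.05, 6.06 and 6.45 in MRL hearts, against 10.40, 10.20 and 10.66 in C57 hearts. In C57 infarct tissue it fell by 1.95 ± 0.56 at day 5 (adjusted p = 0.009). In MRL its rise of 1.42 ± 0.52 (adjusted p = 0.031) was 0.66 ± 0.36 without the 2 libraries (adjusted p = 0.13): the 3 other arrays read 6.69, 6.83 and 7.10. In the noninfarct region it fell in C57 by 1.50 ± 0.40 at day 5 (adjusted p = 0.014), while the MRL change was 0.22 ± 0.37 (adjusted p = 0.68, or 0.39 without the 2 libraries). Its strain by infarction at day 5 in infarct tissue was 3.37 ± 0.77 and not called (adjusted p = 0.10), and 2.62 ± 0.51 and called (adjusted p = 0.015) without the 2 libraries. The MRL rise of Pttg1 in infarct tissue was thus called in 1 of 2 measured probe sets once those libraries were left out.

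The third Pttg1 set (1419620_at) stayed between 2.25 and 2.49 in MRL arrays and between 2.36 and 2.66 in C57 arrays, below every array's median, with no gap to read. Rpgrip1 has 3 more sets of that kind: 1431357_a_at ran from 3.16 to 3.73 in MRL and from 3.07 to 3.95 in C57, 1451785_at from 2.82 to 3.18 in MRL and from 2.79 to 3.88 in C57, and 1454231_a_at from 2.54 to 3.02 in MRL and from 2.64 to 3.22 in C57. All 4 of these dim sets failed the filter in every fit. The strain difference of Rpgrip1 is therefore seen through 1 of its 4 probe sets, and that of Cyfip2, Il15 and Stk25 through the single set each has.

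**Figure D2:**
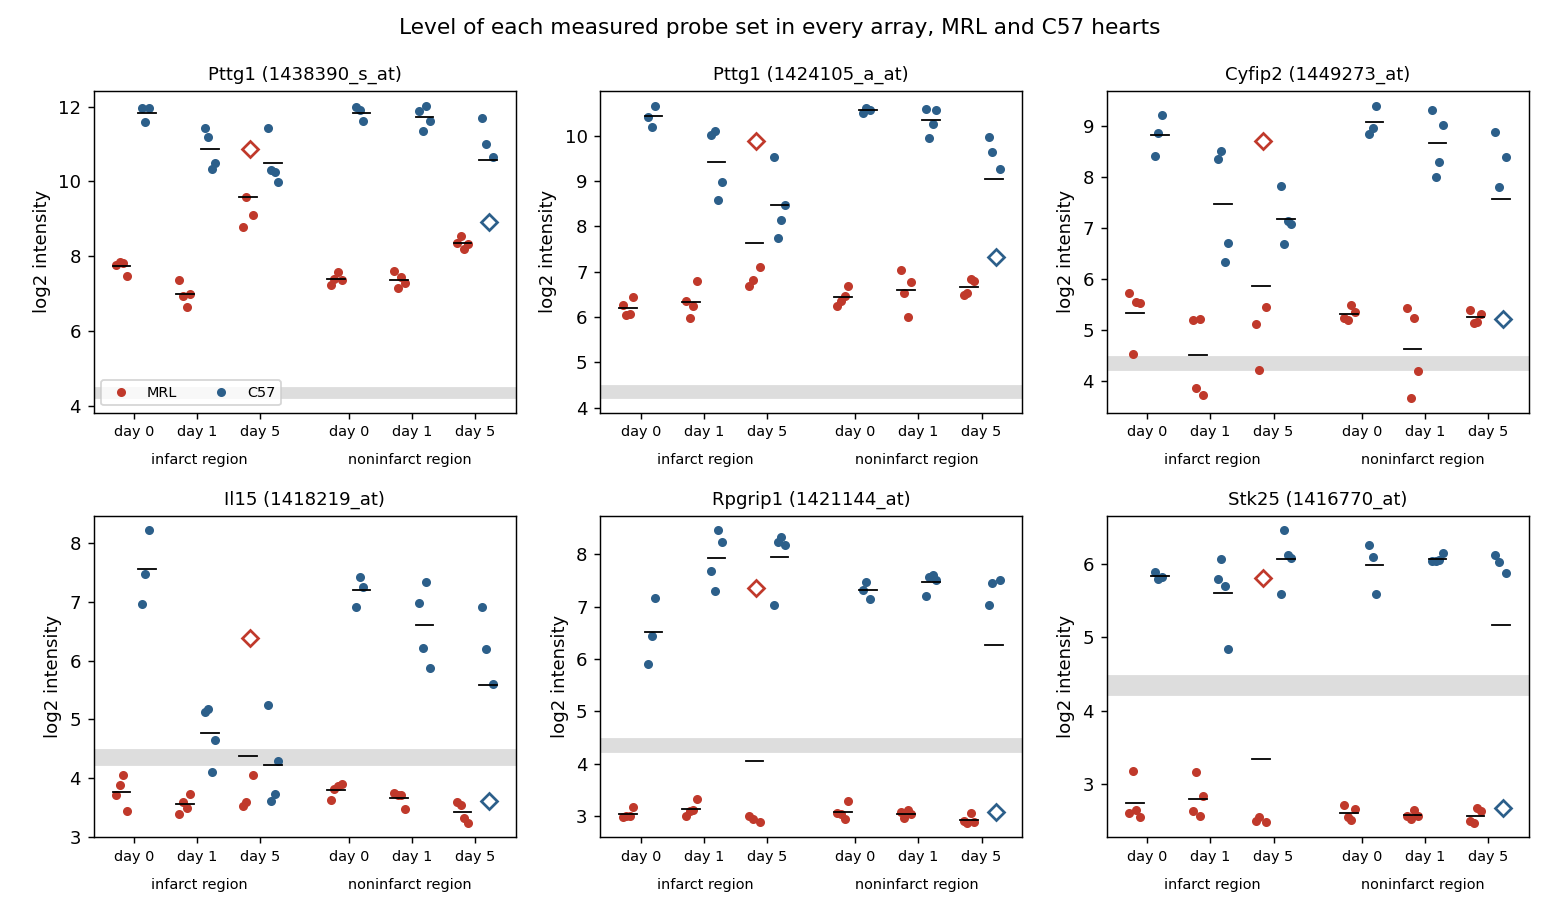
Log2 intensity of the 6 tested probe sets in each of the 46 arrays, MRL left of C57 within each day, with a line at the group mean and a grey band over the range of array medians (4.22 to 4.48). Open diamonds are the 2 libraries that stood with the other strain, and the Il15, Rpgrip1 and Stk25 values of all other MRL arrays lie below the band.

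In infarct tissue Cyfip2 was lower in C57 hearts at day 5 than at day 0, and still above the MRL hearts once the 2 libraries were left out. Its probe set (1449273_at) was at 5.73, 4.53, 5.55 and 5.53 in MRL at day 0, against 8.41, 8.86 and 9.22 in C57. At day 1 it was 5.19, 3.87, 5.21 and 3.74 in MRL, against 8.35, 8.52, 6.34 and 6.72 in C57. At day 5 it was 5.12, 4.21, 8.70 and 5.46 in libraries labelled MRL, against 7.82, 6.69, 7.14 and 7.08 in C57. All C57 day 5 arrays were below the C57 day 0 arrays, and the C57 day 1 arrays split into 2 high and 2 low. The day 5 change in C57 was -1.65 ± 0.74 (adjusted p = 0.077), and was called without the 2 libraries (adjusted p = 0.011). No change of Cyfip2 in MRL was called. At day 1 only 2 of 4 MRL arrays in each region had Cyfip2 above their array median, so these levels lie partly at background.

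The Cyfip2 gap in the infarct region was -3.50 ± 0.74 at day 0, -2.98 ± 0.68 at day 1 and -1.31 ± 0.68 at day 5, or -2.25 ± 0.50 at day 5 without the 2 libraries. In the noninfarct region it was -3.75 ± 0.58, -4.03 ± 0.54 and -2.33 ± 0.54, the last -3.12 ± 0.36 without them. Strain by infarction was not called for Cyfip2, and at day 5 in the infarct region it was 2.18 ± 1.01, or 1.24 ± 0.71 without the 2 libraries.

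**Figure D3:**
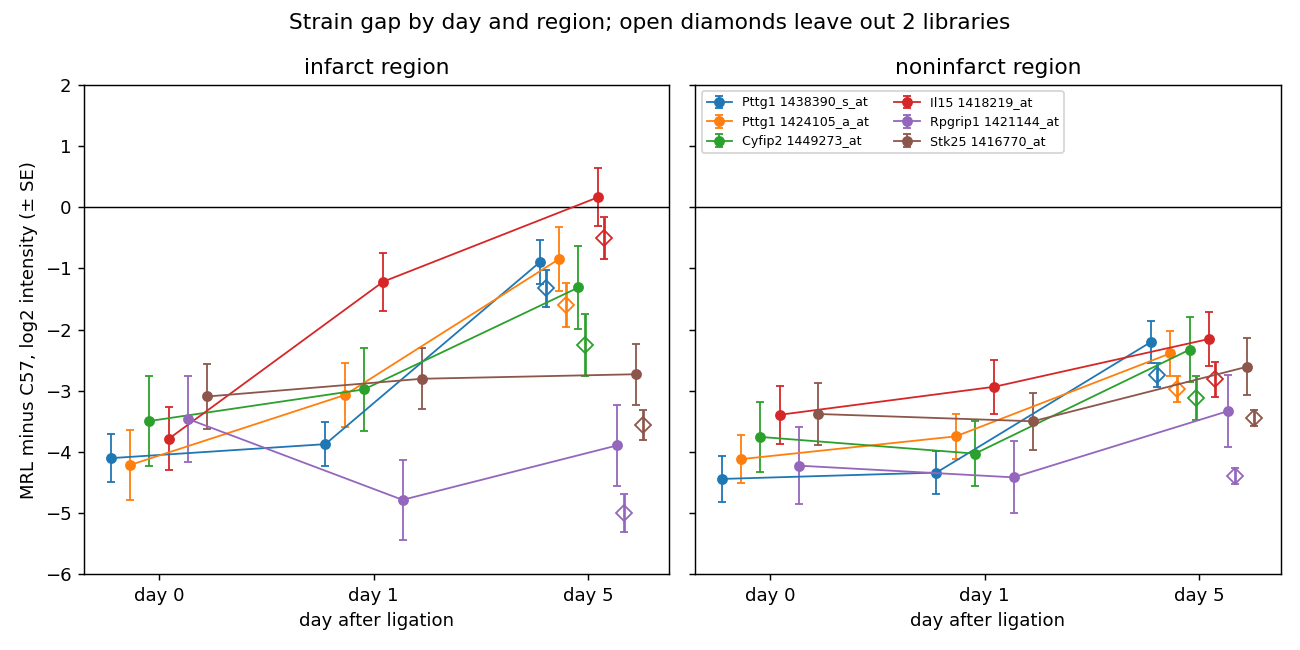
Difference of group means, MRL minus C57, in log2 intensity with its SE, by day for the infarct region (left) and the noninfarct region (right). Filled points use all arrays and open diamonds at day 5 leave out the 2 libraries. In infarct tissue the Il15 gap is -3.79 at day 0 and -0.50 at day 5 without those libraries, and the Stk25 gap is -3.09 and -3.56.

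Over all 5 members, 10 of 48 changes after infarction were called, and 12 without the 2 libraries. Of all probe set comparisons of this kind 22.3% were called, and 25.4% without the 2 libraries, so the members' count is near the background. In infarct tissue 2 of 6 member probe sets rose in MRL at day 5 (23.6% of all rose), 3 of 6 fell in C57 at day 5 (19.3% of all fell) and 1 of 6 fell in C57 at day 1 (6.16%). In noninfarct tissue at day 5, 1 of 6 rose in MRL (16% of all rose) and 3 of 6 fell in C57 (9.45% of all fell). At day 1 limma called no member in MRL infarct tissue (21.5% of all), in MRL noninfarct tissue (0.98%) or in C57 noninfarct tissue (3.99%), and in each of these comparisons 0 of 6 had an unadjusted p under 0.05. In MRL, Il15, Rpgrip1 and Stk25 passed the filter through C57 arrays and lay below the array median on days 0 and 1, so 3 of the 6 tests there could not show a fall. With all arrays, the called changes were falls in C57 and rises of Pttg1 in MRL. Without the 2 libraries the Rpgrip1 rises in C57 infarct tissue were added. Falls of Cyfip2 at day 5 and of Pttg1 1438390_s_at at day 1 (-0.97, adjusted p = 0.03) were added in that tissue too. The day 5 rise of Pttg1 1424105_a_at in MRL infarct tissue and the day 5 fall of Il15 in C57 noninfarct tissue were then no longer called. Comparisons with day 0 share the day 0 arrays.

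Strain by infarction was called for 2 of 24 member tests, Pttg1 and Il15 at day 5 in the infarct region, and for 5 without the 2 libraries. Over all probe sets 0.0556% of such tests were called (0.185% without the 2 libraries), with 0.156% at day 5 and 0.0468% at day 1 in infarct tissue and 0.0081% on each day in noninfarct tissue. Nothing is read from these shares, because the gaps chose the members. Between regions, 2 of 36 member tests were called, against 6.53% of all probe set tests: Il15 in C57 at day 1 and Pttg1 in MRL at day 5, where infarct tissue was higher by 1.23 ± 0.37 (adjusted p = 0.023), or by 0.80 ± 0.26 without the 2 libraries (adjusted p = 0.016). Of all probe sets 0.0304% were called between regions in MRL and 0% in C57 at day 0, 9.28% in MRL and 7.31% in C57 at day 1, and 14% in MRL and 8.53% in C57 at day 5. Without those libraries 8 member tests were called, beside 16.4% of all probe set tests, and with only the arrays of each comparison in the limma fit none were, though 6 of 36 had an unadjusted p under 0.05.

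**Figure D4:**
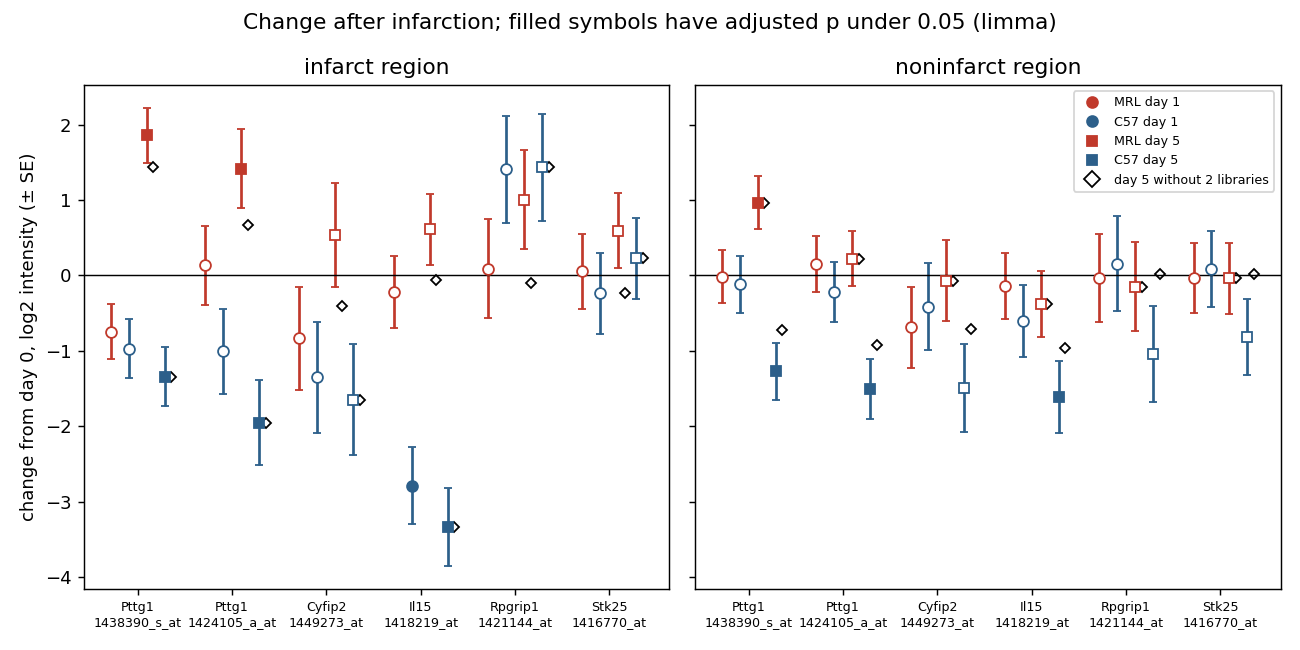
Change from day 0 in log2 intensity with its SE, for the infarct region (left) and the noninfarct region (right), with MRL (red) left of C57 (blue) at each day. Filled symbols passed an adjusted p under 0.05, and small diamonds give the day 5 change without the 2 libraries. In infarct tissue at day 5 Il15 is at -3.34 in C57, where 3 of 4 arrays read it below their median, and Pttg1 1438390_s_at is at 1.86 in MRL.

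Heart muscle genes were low in many of the C57 arrays in which Pttg1, Cyfip2 and Il15 were low. Cardiomyocyte genes were at 13.96, 13.89, 13.08 and 13.38 in the C57 day 1 infarct arrays, and Cyfip2 was high in the first 2 and low in the others. Il15 was already low, at 5.13 and 5.18, in those first 2 arrays, whose cardiomyocyte level was near that of C57 day 0 (14.01 to 14.02). At day 5 the list was at 12.68, 12.06, 13.86 and 12.59 in libraries labelled MRL, against 13.70, 12.47, 12.82 and 12.52 in C57, where replicate 1 with the highest list level also had the highest Pttg1, Cyfip2 and Il15. Of the 9 cardiomyocyte genes 8 fell in MRL and 7 in C57 in infarct tissue at day 5, and all 10 monocyte and macrophage genes and all 7 fibroblast genes rose in both. Of all probe sets there, 23.6% rose and 23.4% fell in MRL, and 23.4% rose and 19.3% fell in C57. The part of these cell types in the members' changes was not tested. Without the 2 libraries, Pearson's r between Pttg1 and Cyfip2 was 0.190 over 23 MRL arrays and 0.848 over 21 C57 arrays, against 0.605 and 0.901 with all 24 MRL and all 22 C57 arrays. In C57, r without the library that stood apart was 0.888 between Pttg1 and Il15 and 0.847 between Cyfip2 and Il15, against 0.875 and 0.852 with it. No such values are read for Il15, Rpgrip1 or Stk25 in MRL, where these genes were below the median in all 23 arrays. Against Rpgrip1 the C57 values without that library were -0.742 for Pttg1, -0.702 for Cyfip2 and -0.730 for Il15, and with it 0.189, 0.17 and -0.0745, so these negative values rest on leaving out 1 library. Arrays share groups and tissue makeup, so the values are descriptions.

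**Figure D5:**
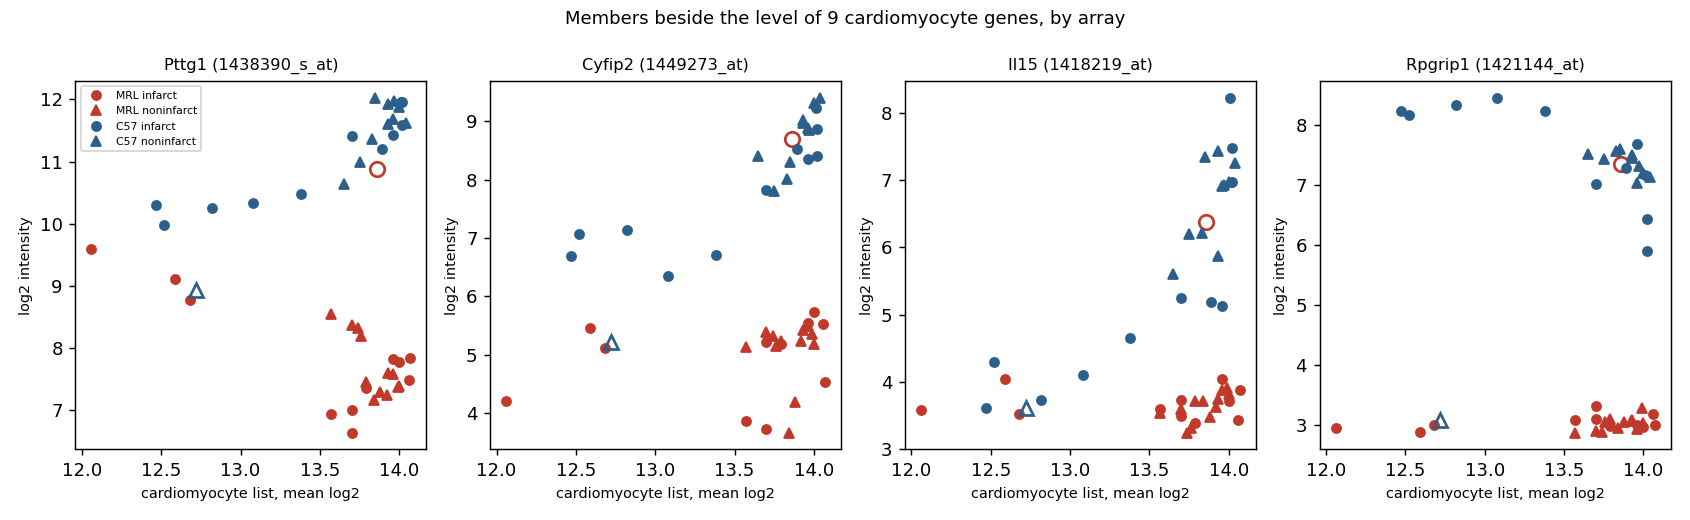
Log2 intensity of 4 members against the mean log2 level of 9 cardiomyocyte genes, 1 point per array, circles for infarct and triangles for noninfarct tissue, MRL in red and C57 in blue. Large open symbols are the 2 libraries that stood with the other strain. In C57 the Pttg1, Cyfip2 and Il15 points are low where the list is low (12.47 to 13.38), and Rpgrip1 points are high there except the open symbol at 12.72, with Rpgrip1 at 3.08.

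Of the 61 tested genes in 5 lists of the members' pathways, 36 were called in MRL infarct tissue at day 5 (23 rose and 13 fell) and 31 in C57 (21 rose and 10 fell). Of all probe sets 46.9% were called in MRL (23.6% rose and 23.4% fell) and 42.7% in C57 (23.4% rose and 19.3% fell), and the counts of each list stand against these shares. Of 18 tested partners of securin in chromosome separation, 9 rose and 0 fell in MRL infarct tissue at day 5, and 8 rose and 0 fell in C57. Cdk1, the kinase that drives entry into mitosis, rose by 4.46 ± 0.48 in MRL and by 3.92 ± 0.52 in C57, while Cdc20, which activates the complex that destroys securin, rose by 3.19 ± 0.44 in MRL and 2.84 ± 0.47 in C57. Bub1b, a checkpoint protein, rose by 2.59 ± 0.31 in MRL and 1.63 ± 0.34 in C57. The list's median change was 0.48 in MRL and 0.67 in C57, beside -0.03 in MRL and 0.03 in C57 over all genes. Securin itself did not share that direction in C57, where Pttg1 fell. The mean log2 level of 8 markers of dividing cells was between 5.95 and 7.25 in libraries labelled MRL day 5 infarct and between 4.60 and 6.93 in C57. At day 0 the highest such mean in the infarct region was 2.63 in MRL and 2.85 in C57. Whether dividing cells carry the Pttg1 rise of MRL was not tested.

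Of 12 partners of Cyfip2 in and around the WAVE complex, 9 rose and 2 fell in MRL infarct tissue at day 5, and 9 rose and 1 fell in C57. Rac2, a GTPase of blood cells, rose by 4.90 ± 1.03 in MRL and by 4.63 ± 1.11 in C57. Nckap1l, the blood cell form of a WAVE subunit, rose by 3.16 ± 0.74 in MRL and by 3.45 ± 0.80 in C57. The median was 0.84 in MRL and 0.91 in C57. The change of Cyfip2 itself in C57 was -1.65, not called with all arrays.

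For the interleukin 15 axis, 2 of 9 tested genes rose and 4 fell in each strain in infarct tissue at day 5. The share that rose was near that of all probe sets. The share that fell was above that of all probe sets (23.4% in MRL and 19.3% in C57), which was not tested. Il15ra, the chain that presents the cytokine, fell by 1.60 ± 0.38 in MRL and by 1.23 ± 0.41 in C57. Stat5b, which carries the signal to the nucleus, fell by 0.92 ± 0.24 in MRL and by 0.95 ± 0.26 in C57, and Socs3, a feedback inhibitor of cytokine signalling, rose by 2.74 ± 0.52 in MRL and by 3.07 ± 0.56 in C57. The median was -0.22 in MRL and -0.06 in C57. Of 12 listed markers of natural killer and cytotoxic T cells, none passed the filter. Klrb1c had no probe set annotated to it alone and was not measured. The others were at background, among them Ncr1 (2.78 to 3.24), Gzma (2.32 to 3.47) and Prf1 (2.38 to 2.87), below the array median in all 46 arrays.

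In the STRIPAK list, 2 of 16 rose and 7 fell in MRL infarct tissue at day 5, and 2 rose and 5 fell in C57. Stk24, the closest relative of Stk25, fell by 0.82 ± 0.24 in MRL and by 0.71 ± 0.25 in C57, while Stk25 itself had no called change. Of 6 tested genes around RPGR and the ciliary transition zone, 1 rose in MRL (Rab8a, by 0.59 ± 0.22) and 0 changed in C57. Of the 61 tested genes of the 5 lists, limma called 0 for strain by infarction in infarct tissue at day 5, with or without the 2 libraries. An unadjusted p under 0.05 was found for 0 of them with all arrays and for 4 without the 2 libraries. Without those libraries the securin list had 9 risers in MRL and 9 in C57, the WAVE list 9 in MRL and 9 in C57, the interleukin 15 axis 2 in MRL and 2 in C57, and the STRIPAK list 3 in MRL and 2 in C57. The fallers in MRL and C57 were 0 and 0 for securin, 2 and 2 for WAVE, 4 and 4 for interleukin 15, and 7 and 6 for STRIPAK. Of all probe sets 26.6% then rose and 26% fell in MRL, and 25% rose and 20.7% fell in C57.

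By gene order in RefSeq, Pttg1 and Cyfip2 lie on chromosome 11 with 7 measured genes between them. Of the 10 nearest measured genes of each member, 5 on each side, none was lower in MRL without overlap in both regions at day 0. In 1 region only, Ebf1 and Irgm1 (infarct) and Mat2b, Gab1 and Mettl17 (noninfarct) were. The share of all tested probe sets was 5.64% in infarct and 7.22% in noninfarct tissue, so nothing is read from the absence in both. The gaps of all the neighbours ran from -0.54 (Mat2b, by Pttg1) to 0.72 (Supt16, by Rpgrip1). Supt16 was the one neighbour higher in MRL without overlap in both regions.

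Over all 46 arrays and 7645 genes, the profile most like that of Pttg1 was Msrb1 (Pearson's r = 0.874), followed by H2-D1 (0.868) and Vamp8 (0.843). Cyfip2 was most like Pccb (0.902), and Il15 was most like Pccb (0.919), Scube2 (0.901) and Tnxb (0.864). Rpgrip1 and Stk25 shared their 3 closest profiles: H2-D1 (0.960 for Rpgrip1 and 0.948 for Stk25), H2-K1 (0.946 for Rpgrip1 and 0.936 for Stk25) and Zfp277 (0.933 for Rpgrip1 and 0.905 for Stk25). These values hold the strain difference itself and say nothing of shared control.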

How the data were processed

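The deposited values are 1 intensity per probe set and array on a linear scale, which the authors computed with GCRMA (version not stated), as named in the submitters' processing notes. GCRMA corrects background, normalizes between arrays and summarises probes, so levels near the array median are estimates near background. The number of arrays limits the precision. Log2 was taken without an offset, and changes are differences of mean log2 intensity with the SE of the fit. Each region's 23 arrays entered 1 linear model with a mean per group (lmFit, then eBayes, two-sided tests, limma 3.58.1, R 4.3.3), and regions were compared on all 46 arrays. Of 22690 probe sets, 12834 were tested in infarct, 12344 in noninfarct and 13138 in all arrays. The fit was tested on simulated data. Probe sets were named by the platform table, and member symbols were matched to RefSeq by Entrez ID (5 of 5). The members and all gene lists were chosen with earlier results of these data known. Named genes follow a rule: every member probe set, up to 4 called genes with the largest change per list, the 5 measured genes on each side of a member, and the 3 genes of highest correlation with it. Replicate numbers were checked for pairing across regions: same-numbered arrays deviated together (correlation over 0.1) in every pair of MRL day 1 (0.34 to 0.56) and of C57 day 0 (0.23 to 0.43) but not of other groups. Alternatives were no filter, quantile normalization, median centring, an offset of 32, other sets of arrays in the fit, the replicate number as a block, a mean-variance trend, leaving out each array and leaving out libraries that stand apart. In region tests the block paired same-numbered arrays of 1 strain and day.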

Additional observations from a re-analysis of the deposited data

Results flagged for a closer look

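Within groups of 4 arrays, 11 of 60 combinations of probe set and group had 1 array farther from the rest than Dixon's limit allows, and chance gives about 1 in 20. The library labelled MRL day 5 infarct replicate 3 was far above its group for Pttg1 1424105_a_at (9.88), Rpgrip1 (7.36) and Stk25 (5.81). The library labelled C57 day 5 noninfarct replicate 3 was far below its group for Rpgrip1 (3.08) and Stk25 (2.67). C57 day 5 infarct replicate 1 was low for Rpgrip1 (7.03). Smaller departures were Cyfip2 at 4.53 and Stk25 at 3.17 in MRL day 0 infarct replicate 2, Rpgrip1 at 3.19 in MRL day 0 infarct replicate 4, Il15 at 3.48 in MRL day 1 noninfarct replicate 4, and Stk25 at 6.16 in C57 day 1 noninfarct replicate 4.

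With all arrays, limma called the change from day 0 to day 5 in the infarct region different between the strains for 2 probe sets. The difference of changes, MRL minus C57, was 3.20 for Pttg1 1438390_s_at and 3.95 for Il15. Il15 was below the array median in every MRL array but the library labelled day 5 infarct replicate 3, so a fall in MRL could not be seen. Its call ended without C57 day 0 infarct replicate 3 (limma adjusted p = 0.069). The other measured Pttg1 set was not called (limma adjusted p = 0.10). The members were chosen for their gaps, so this test is not independent of the choice.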

How the results depend on the processing

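The count of member changes after infarction stayed between 7 and 14 under every alternative run, and between 7 and 13 when single arrays were left out. The counts of strain by infarction and of region depended on the libraries that stood apart. Strain by infarction was called in 5 of 24 member tests without the 2 libraries, all 5 of them of Pttg1 or Il15. It was called in 6 without these and C57 day 5 infarct replicate 1, against 2 with all arrays, and in 1 to 4 without single arrays. Region differences were called in 8 and 10 of 36 member tests in those settings, against 2 with all arrays, and in 1 to 4 without single arrays. The share of all probe set tests called was higher as well, 16.4% and 18.6% for region, against 6.53% with all arrays, and 0.185% and 0.209% for strain by infarction, against 0.0556%. With only the arrays of each comparison in the fit, limma called 0 region differences, with 6 of 36 at an unadjusted p under 0.05. The Il15 gap at day 5 in the infarct region, 0.16, changed sign to -0.50 without the 2 libraries and to -0.16 without 3. With the replicate number as a block, 10 changes, 2 differences by strain and 3 region differences were called. The added one was Il15 in C57 at day 5 (-1.36, adjusted p = 0.029), and the block changed no other call. For region tests this block paired same-numbered arrays of 1 strain and day, which the labels do not tie to 1 heart. In C57 at day 5 the deviations of such pairs had correlations of 0.77, -0.0071, 0.25 and 0.25. Leaving out single arrays ended the region calls in some cases: that of Il15 in C57 at day 1 without C57 day 1 infarct replicate 3 or noninfarct replicate 1 or 3, and that of Pttg1 in MRL at day 5 without infarct replicate 2 or 3 or noninfarct replicate 3 or 4. The Pttg1 1424105_a_at rise in MRL also ended without MRL day 0 infarct replicate 1, 2 or 3, and the Pttg1 1438390_s_at fall in C57 noninfarct tissue without C57 day 0 noninfarct replicate 1 or 2. The cause was not tested. An offset of 32 made the gaps of the dim members smaller without turning any. Over all tested member probe sets it moved 26 of the 36 strain gaps by at least the spread within groups. It added 3 calls and ended 2. Signals below the array median bound the MRL level of Il15, Rpgrip1 and Stk25 only from above, and in some arrays that of Cyfip2.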
